A study of Mus musculus with 10 samples.

Results

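In serum-starved mouse fibroblasts that lacked Lin37, RNA of Suv39h1, Uhrf1 and Hells was higher than in cells of the same clones to which Lin37 had been returned. Mean levels were 4.32-fold higher for Suv39h1, a histone H3 lysine methyltransferase of heterochromatin, 3.88-fold for Uhrf1, which brings the maintenance DNA methyltransferase to newly replicated DNA, and 3.01-fold for Hells, a chromatin remodeller needed for DNA methylation. Dnmt1 was 1.69-fold higher in its mean and did not pass the test over all genes. The genes described here are 10 of the 45232 gene entries measured, and they were chosen by name for their function: Dnmt1, Dnmt3a, Uhrf1 and Hells for DNA methylation, Suv39h1 and Cbx5 for heterochromatin, and Ezh1, Ezh2, Suz12 and Eed for Polycomb repressive complex 2 (PRC2). The choice was made with earlier results of these data known, so shares of all genes given beside them are for description only. All 10 genes passed the minimum level used for testing. With limma over both clones, 3 of the 10 rose in KO and 0 fell at a Benjamini-Hochberg adjusted p under 0.05, beside 1.61% of 16866 tested genes that rose and 0.083% that fell.

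DNA methylation must be copied onto the new strand each time a cell divides. UHRF1 recognises DNA that is methylated on the old strand only and recruits DNMT1, while DNMT3A methylates sites that carried no mark before, and HELLS opens nucleosomal DNA to these enzymes. SUV39H1 methylates histone H3 in constitutive heterochromatin, where HP1 proteins such as CBX5 bind the mark, and PRC2 places another methyl mark on histone H3 through EZH2 or EZH1, held together by SUZ12 and EED.

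The cells were NIH3T3, an established mouse fibroblast line, kept for 60 h in medium with 0% serum after growth in 10% serum, which takes them out of the cell cycle into quiescence. Lin37 is a subunit of MuvB, the core of the DREAM complex that represses cell cycle genes in quiescent cells. Every culture carried Lin37 mutations made with Cas9 nickase, the rescue cultures too: clone 411-27 had insertions or deletions in exon 4, clone 632-2 in exon 6, and each was grown from a single cell. KO cells held an episome with doxycycline-inducible luciferase and rescue cells one with inducible wild-type Lin37, both under hygromycin selection. By the study's methods, doxycycline switched on these genes together with GFP, and GFP-positive cells were collected by sorting. The comparison asks what returning Lin37 changed within a clone, and no library of unmutated cells was analysed here. Each clone gave 2 KO and 2 rescue cultures. A repeat library of culture 2 in both arms of clone 632-2 is a technical replicate and was averaged with it, so 10 libraries stood for 8 cultures.

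Lin37 RNA itself lay between 0.274 and 0.417 rescaled RPKM in the 4 KO cultures and between 2.12 and 4.92 in the 4 rescue cultures, and 13.8% of its 31-base stretches also occur in the processed pseudogene Gm8802, which was listed at 0.242 to 0.689 in KO and 13.2 to 42.1 in rescue. Depth was estimated at 21900000 to 91100000 reads from the step that 1 read adds in genes with a single exon, but only 14.9% to 18.4% of low values were whole multiples of that step within 0.01, so no counting error is given. The factors that put the libraries on one scale ran from 0.324 to 2.70, and each KO culture had a larger factor than the rescue culture of the same number. The summed level of 8 fibroblast markers was 470 to 765 in KO and 506 to 829 in rescue, with 0 of the 8 called, although the fibroblast marker Thy1 held 0.531 to 1.83 in clone 411-27 and 7.81 to 9.49 in clone 632-2. Summed markers of epithelial, leukocyte, endothelial or skeletal muscle cells reached at most 1.56 in any culture. The study's text calls the 2 cultures of an arm biological replicates without saying how separately they were grown, and the p-values measure the spread between them. RNA came from many cells at once, in which a larger share of cycling cells and more RNA per cell cannot be told apart. The summed level of 6 genes of cycling cells (Mki67, Top2a, Cdk1, Ccna2, Ccnb1 and Pcna) was 9.87 to 11.3 in KO and 1.34 to 3.34 in rescue, without overlap, and 4 of the 6 rose. That difference goes with each rise described here, and its part in them was not tested.

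The promoters of these genes were read because MuvB acts on genes with E2F or CHR (cell cycle genes homology region) elements. RefSeq (build GRCm38.p6) gave 17 windows for the 10 genes, each of 250 bases before an annotated start and 50 after it. The E2F letters searched were TTCCCGC and TTCGCGC and TTGCCGC and TTGGCGC, and the CHR letters TTTGAA and TTCGAA, all on both strands. E2F letters stood in 7 of the 17 windows (41.2%), from 6 of the 10 genes, beside 9.57% of 32851 windows of all genes, and CHR letters in 3 (17.6%), beside 19.2%. Shown first are the methylation and heterochromatin genes that rose, with Dnmt1 and Dnmt3a for their contrast. For a gene with several windows, the one with most matches is given, or else the most upstream. Sequences run 5′ to 3′ on the strand of the gene, and capitals mark E2F letters on either strand. The Dnmt1 window held 3 such matches, at 219 and 158 bases before its own start and 35 bases after it. The Hells window held 2, at 61 and 43 bases before the start, and the Dnmt3a window 0. The Dnmt1 window shown is number 3 of 3 and lies inside the annotated gene. It is downstream of windows 1 and 2 and their starts, and those windows held 0 E2F letters. The Suv39h1 window shown is number 2 of 2 and also lies inside its gene. Window 1 of Suv39h1, at the annotated start of the gene, held 0 E2F letters.
Dnmt1, chr9:20952574-20952873, minus strand: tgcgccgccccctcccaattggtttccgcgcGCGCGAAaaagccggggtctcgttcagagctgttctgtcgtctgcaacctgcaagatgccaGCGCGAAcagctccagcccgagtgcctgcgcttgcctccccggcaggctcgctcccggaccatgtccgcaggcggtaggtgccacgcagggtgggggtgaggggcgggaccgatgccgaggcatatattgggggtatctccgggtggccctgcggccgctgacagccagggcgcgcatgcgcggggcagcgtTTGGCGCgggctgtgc
Dnmt3a, chr12:3806730-3807029, plus strand: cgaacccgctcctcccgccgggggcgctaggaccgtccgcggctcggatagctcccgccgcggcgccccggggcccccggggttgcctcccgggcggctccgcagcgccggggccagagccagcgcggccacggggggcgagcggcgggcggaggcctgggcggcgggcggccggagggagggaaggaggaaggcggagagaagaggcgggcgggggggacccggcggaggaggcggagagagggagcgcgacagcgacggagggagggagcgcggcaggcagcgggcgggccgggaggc
Uhrf1, chr17:56303087-56303386, plus strand: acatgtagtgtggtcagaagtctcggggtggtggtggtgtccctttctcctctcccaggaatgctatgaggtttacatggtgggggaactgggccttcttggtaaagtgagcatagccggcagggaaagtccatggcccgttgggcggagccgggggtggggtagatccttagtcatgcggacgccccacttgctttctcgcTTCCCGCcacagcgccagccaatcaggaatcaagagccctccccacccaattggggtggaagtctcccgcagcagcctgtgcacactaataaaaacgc
Hells, chr19:38930740-38931039, plus strand: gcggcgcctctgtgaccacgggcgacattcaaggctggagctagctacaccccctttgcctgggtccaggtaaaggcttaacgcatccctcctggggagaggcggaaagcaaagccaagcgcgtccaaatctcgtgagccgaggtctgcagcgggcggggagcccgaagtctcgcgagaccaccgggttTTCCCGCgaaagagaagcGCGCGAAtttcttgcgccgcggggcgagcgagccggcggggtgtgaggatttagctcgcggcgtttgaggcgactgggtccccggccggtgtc
Suv39h1, chrX:8074312-8074611, minus strand: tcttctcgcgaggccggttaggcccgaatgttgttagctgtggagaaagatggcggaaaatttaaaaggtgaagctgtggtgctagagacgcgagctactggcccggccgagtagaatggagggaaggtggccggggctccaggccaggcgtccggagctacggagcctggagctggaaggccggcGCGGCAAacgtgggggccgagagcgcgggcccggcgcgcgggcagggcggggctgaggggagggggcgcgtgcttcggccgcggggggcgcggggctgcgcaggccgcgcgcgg

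For the catalytic pair of PRC2, the Ezh2 window held E2F letters 5 bases after its start and the Ezh1 window neither E2F nor CHR letters. E2F letters also stood in a window of Suz12, which like Dnmt1 and Ezh2 did not pass the test over both clones. CHR letters stood only in windows of Dnmt1, Suz12 and Eed, none of which passed. These matches describe the letters in the windows only.
Ezh2, chr6:47594981-47595280, minus strand: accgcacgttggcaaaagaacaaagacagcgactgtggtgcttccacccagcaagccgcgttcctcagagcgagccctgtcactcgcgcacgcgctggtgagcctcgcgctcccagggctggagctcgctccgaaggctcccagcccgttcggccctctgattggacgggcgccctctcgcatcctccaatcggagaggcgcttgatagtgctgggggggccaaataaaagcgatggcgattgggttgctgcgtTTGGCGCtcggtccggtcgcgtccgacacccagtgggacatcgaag
Ezh1, chr11:101226414-101226713, minus strand: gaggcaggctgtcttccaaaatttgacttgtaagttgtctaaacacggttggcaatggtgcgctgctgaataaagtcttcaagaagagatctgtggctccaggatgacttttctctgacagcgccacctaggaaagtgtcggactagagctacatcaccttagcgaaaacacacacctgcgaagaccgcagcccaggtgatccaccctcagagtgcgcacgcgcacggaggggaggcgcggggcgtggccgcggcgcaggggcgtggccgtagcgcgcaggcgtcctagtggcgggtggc

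**Figure D1:**
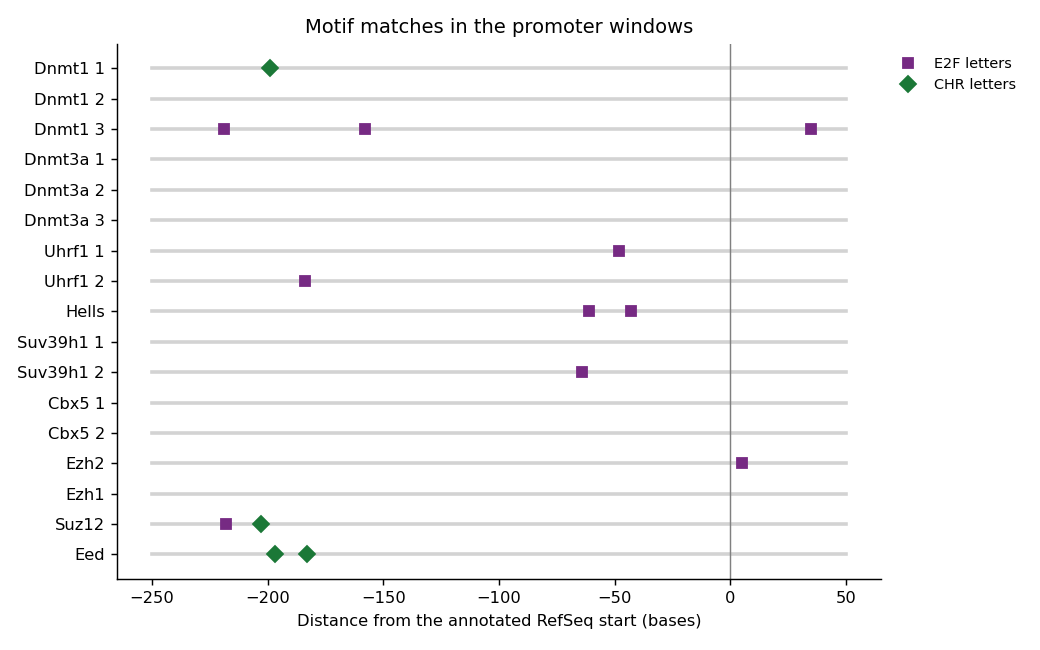
Positions of E2F letters (squares) and CHR letters (diamonds) in the 17 RefSeq windows of the 10 genes, in bases from the annotated start; numbers after a symbol count the windows of that gene from the most upstream. Matches to E2F letters lie in windows of Dnmt1, Uhrf1, Hells, Suv39h1, Ezh2 and Suz12, and matches to CHR letters in windows of Dnmt1, Suz12 and Eed.

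Among the maintenance genes, Dnmt1 (chr9:20907209-20959888, minus strand; this and the other gene positions are GENCODE M21 on mm10) encodes the methyltransferase that copies the mark. In clone 411-27 it stood at 2.24 and 2.51 rescaled RPKM in the KO cultures and at 2.00 and 1.43 in the rescue cultures. In clone 632-2 the KO cultures held 2.75 and 3.46 and the rescue cultures 1.496 and 1.553. Every KO culture thus lay above every rescue culture, with the KO values of clone 632-2 the highest. The means were 2.74 ± 0.523 in KO and 1.62 ± 0.260 in rescue (SD, n = 4 cultures each). On the scale of log2(RPKM + 0.5) used for all tests, which understates changes of low genes, Dnmt1 was 0.61 higher (SE 0.14, limma adjusted p = 0.0869), above the threshold of 0.05. It passed when rescue culture 1 of clone 411-27 was left out (0.72 higher, limma adjusted p = 0.0275).

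Uhrf1 (chr17:56303321-56323486, plus strand) encodes the protein that leads DNMT1 to half-methylated DNA. Its mean over both clones was the lowest of the 10 genes in KO and in rescue, but in KO cultures of clone 632-2 its mean (0.890) lay above those of Ezh2 (0.857) and Dnmt3a (0.789). KO cultures of clone 411-27 held 0.468 and 0.381 rescaled RPKM, and rescue cultures 0.185 and 0.0883. KO cultures of clone 632-2 held 0.891 and 0.889, and rescue cultures 0.180 and 0.224. The groups did not overlap. Both KO values of clone 632-2 were close, but that of culture 2 averaged repeat libraries at 0.688 and 1.09. At the estimated depths the rescue libraries held 3.03 to 15.3 reads per kilobase of Uhrf1 and the KO libraries 14.8 to 67.9. The repeat libraries of culture 2 in clone 632-2 differed by 0.42 (KO) and 0.37 (rescue) in log2(RPKM + 0.5). Those of the rescue culture held 0.132 and 0.316 rescaled RPKM. Over both clones Uhrf1 rose by 0.76 (SE 0.12, limma adjusted p = 0.0155). Leaving out any culture of clone 632-2 ended the call, with adjusted p of 0.0953 and 0.0962 without KO cultures 1 and 2 and 0.0680 and 0.0795 without rescue cultures 1 and 2 in limma. Of the 31-base stretches of its transcripts, 21.9% also occur in the processed pseudogene Gm5648, which was listed at 0.415 to 1.28 RPKM in KO and 0 to 0.310 in rescue, so reads of the gene and its copy cannot be separated with certainty.

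Hells (chr19:38930915-38971051, plus strand), also known as Lsh, encodes an ATPase of the SNF2 family. Its KO cultures held 1.19 and 1.59 rescaled RPKM in clone 411-27 and 1.63 and 1.56 in clone 632-2. Its rescue cultures held 0.697 and 0.545 in clone 411-27 and 0.321 and 0.422 in clone 632-2. The groups did not overlap, and the first KO culture of clone 411-27 was the lowest of the KO cultures by a wide gap. Hells rose by 1.01 over both clones (SE 0.14, limma adjusted p = 0.00570).

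Dnmt3a (chr12:3806007-3914443, plus strand), encodes the de novo methyltransferase. In KO cultures it held 0.810 and 0.893 rescaled RPKM in clone 411-27 and 0.804 and 0.774 in clone 632-2. Rescue cultures held 0.965 and 0.858 in clone 411-27 and 0.990 and 0.892 in clone 632-2. The groups overlapped at their edges, and 3 of the 4 KO cultures lay below the rescue culture of the same number. The change was -0.11 over both clones (SE 0.08, 95% confidence interval -0.30 to 0.08, limma adjusted p = 0.777).

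The contrast of Dnmt1 with Dnmt3a asks whether the maintenance enzyme moved apart from the de novo enzyme. It was taken as the difference of their log2(RPKM + 0.5) within each culture. The Dnmt1 level minus the Dnmt3a level was 1.07 and 1.11 in KO and 0.77 and 0.51 in rescue cultures of clone 411-27, and 1.32 and 1.64 in KO and 0.42 and 0.56 in rescue cultures of clone 632-2. It was larger in all 4 KO cultures than in any rescue culture. The means were 1.28 ± 0.26 in KO and 0.57 ± 0.15 in rescue (SD, n = 4), which differ by 0.72. Over all 70 assignments of the 8 cultures a two-sided exact permutation test gave p = 0.0286, the smallest it can give, and 0.0571 after adjustment over the 2 contrasts. With cultures exchanged only within a clone, the exact test over 36 assignments gave 0.0556, again the smallest it can give, and 0.111 after adjustment. The shift was 0.45 in clone 411-27 and 0.99 in clone 632-2, in the same direction.

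**Figure D2:**
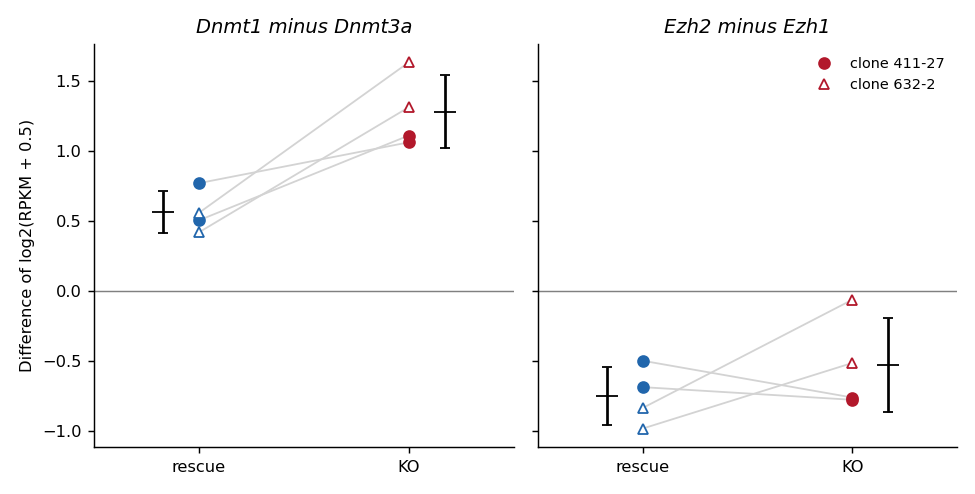
Difference of log2(RPKM + 0.5) within each culture, Dnmt1 minus Dnmt3a (left) and Ezh2 minus Ezh1 (right); points are cultures (circles, clone 411-27; triangles, clone 632-2), grey lines join cultures of the same clone and number, and bars give the mean ± SD of 4 cultures. The Dnmt1 difference is higher in KO along all 4 lines, and the Ezh2 difference along 2 of 4, both in clone 632-2.

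Beside these genes, 15 others that write, read or remove DNA methylation were tested, and 0 passed in either direction with limma over both clones, with 3 higher and 0 lower at an unadjusted p under 0.05, beside 5.06% of all tested genes higher and 3.72% lower at that p. Their median change was 0.04, beside -0.03 for all genes tested. The paralog Dnmt3b, the other de novo enzyme, held 0.231 to 0.268 RPKM in KO and 0.0964 to 0.114 in rescue cultures, without overlap, but its change of 0.30 (SE 0.09) had a limma adjusted p of 0.294. The paralog Uhrf2 held 0.566 to 0.779 in KO and 0.555 to 1.25 in rescue, overlapping, with a change of -0.16 (SE 0.14, limma adjusted p = 0.806).

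**Figure D3:**
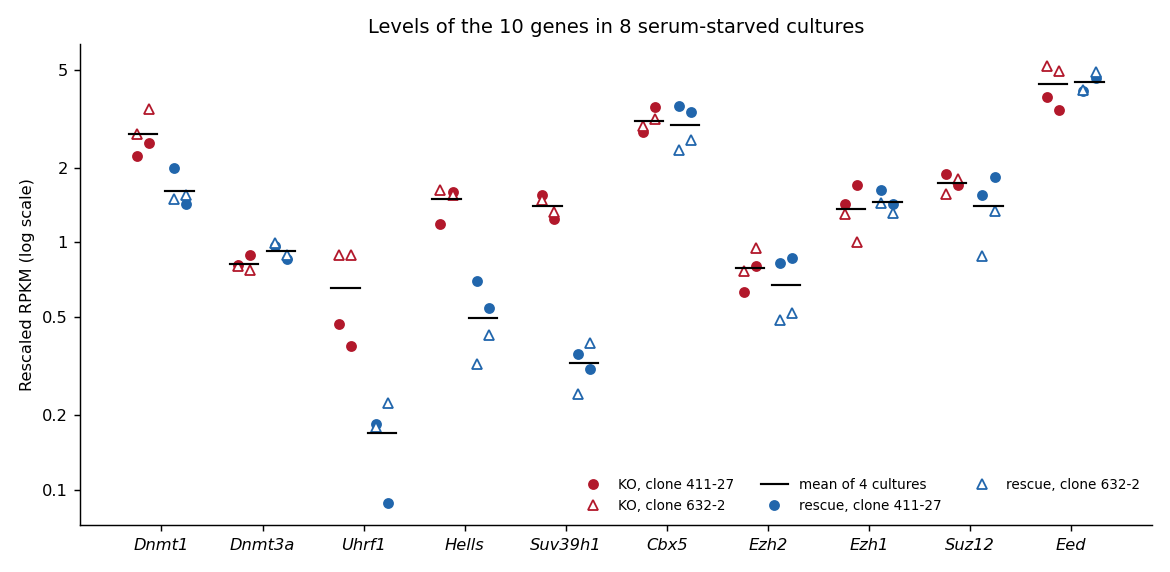
Rescaled RPKM (log axis) of the 10 genes in 8 cultures, KO in red and rescue in blue, clone 411-27 as filled circles and clone 632-2 as open triangles; black lines are means of 4 cultures. KO and rescue are separate for Dnmt1, Uhrf1, Hells and Suv39h1 and overlap for the other 6 genes.

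Of the heterochromatin genes, Suv39h1 (chrX:8061171-8074760, minus strand) had the largest ratio of mean levels among the 10 genes. KO cultures held 1.55 and 1.24 rescaled RPKM in clone 411-27 and 1.49 and 1.33 in clone 632-2. Rescue cultures held 0.354 and 0.308 in clone 411-27 and 0.244 and 0.392 in clone 632-2. The lowest KO culture lay more than 3-fold above the highest rescue culture. Suv39h1 rose by 1.21 over both clones (SE 0.10, limma adjusted p = 0.000514), with 1.19 in clone 411-27 and 1.23 in clone 632-2. The transcript Gm14820, annotated on the other strand, shares 13.1% of the 31-base stretches of Suv39h1. It was listed at 0.111 RPKM or less in KO and 0.170 or less in rescue, and since no source used here says whether strand entered the counting, its reads may be counted with those of Suv39h1.

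Cbx5 (chr15:103191544-103239816, minus strand) encodes HP1 alpha, a reader of the mark that SUV39H1 makes. It held 2.79 and 3.53 rescaled RPKM in KO and 3.58 and 3.37 in rescue cultures of clone 411-27, and 2.95 and 3.16 in KO and 2.36 and 2.60 in rescue cultures of clone 632-2. The groups overlapped, and the highest value was that of a rescue culture of clone 411-27. The change over both clones was 0.07 (SE 0.12, 95% confidence interval -0.20 to 0.33, limma adjusted p = 0.916).

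Of 16 other heterochromatin genes 0 passed in either direction with limma over both clones, and at an unadjusted p under 0.05 1 was higher and 0 lower, beside 5.06% and 3.72% of all tested genes, with a median change of -0.05. For Suv39h2, the paralog of Suv39h1, the KO cultures held 0.165 to 0.372 RPKM and the rescue cultures 0.0503 to 0.0830, without overlap. The ratio of mean levels was 4.24, beside 4.32 for Suv39h1. On the tested scale, which understates changes of low genes, the change was 0.45 (SE 0.11, limma adjusted p = 0.144). Suv39h2 passed only with technical replicates as separate libraries and from RPKM as deposited. Cbx1 and Cbx3, which encode the other HP1 proteins, had differences of -0.18 (SE 0.10, limma adjusted p = 0.682) and -0.05 (SE 0.17, limma adjusted p = 0.961). For Cbx1 the KO cultures lay between 2.93 and 3.74 RPKM and the rescue cultures between 3.61 and 4.13, and for Cbx3 both groups lay between 1.17 and 2.28.

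In PRC2, Ezh2 (chr6:47530139-47595341, minus strand) encodes the catalytic subunit best known from dividing cells. In clone 632-2 it held 0.768 and 0.946 rescaled RPKM in KO and 0.485 and 0.518 in rescue cultures. In clone 411-27 the order was the opposite, with 0.630 and 0.801 in KO and 0.828 and 0.868 in rescue cultures. The groups overlapped over both clones, and the change was 0.14 (SE 0.14, 95% confidence interval -0.17 to 0.45, limma adjusted p = 0.822). Within clone 632-2 Ezh2 was 0.43 higher (SE 0.12, limma adjusted p = 0.260) and within clone 411-27 the difference was -0.15 (SE 0.19, limma adjusted p = 0.988). The difference between the clones of 0.59 (SE 0.19) had an unadjusted p of 0.0177 and an adjusted p of 0.997 in limma.

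Ezh1 (chr11:101191115-101226463, minus strand), the paralog that is also made in resting tissue, held 1.43 and 1.70 rescaled RPKM in KO and 1.63 and 1.43 in rescue cultures of clone 411-27. In clone 632-2 it held 1.31 and 1.01 in KO and 1.44 and 1.31 in rescue cultures. The groups overlapped, and the change over both clones was -0.08 (SE 0.11, 95% confidence interval -0.32 to 0.16, limma adjusted p = 0.878).

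The contrast of Ezh2 with Ezh1 asks the same of the catalytic pair of PRC2. Per length, Ezh1 stood above Ezh2 in all 8 cultures, although in the repeat library of KO culture 2 of clone 632-2 Ezh2 (0.948 rescaled RPKM) lay just above Ezh1 (0.934), and the ratio of Ezh2 to Ezh1 ran from 0.336 to 0.607 in rescue and from 0.439 to 0.940 in KO. The log2 difference, Ezh2 minus Ezh1, had a mean of -0.53 ± 0.33 in KO and -0.75 ± 0.21 in rescue (SD, n = 4), overlapping. KO minus rescue was 0.22, with p = 0.371 in the two-sided exact permutation test and 0.371 after adjustment over both contrasts. It was higher in KO in 2 of 4 pairs of cultures, -0.18 in clone 411-27 and 0.62 in clone 632-2. Whether the contrast of Dnmt1 with Dnmt3a differs from that of Ezh2 with Ezh1 was not tested.

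Neither of the remaining core subunits passed the test. Suz12 (chr11:79993106-80034123, plus strand), a scaffold of the complex, held 1.89 and 1.71 rescaled RPKM in KO and 1.56 and 1.84 in rescue cultures of clone 411-27. In clone 632-2 it held 1.577 and 1.805 in KO and 0.883 and 1.33 in rescue cultures. The groups overlapped through clone 411-27, and the change was 0.26 (SE 0.13, 95% confidence interval -0.04 to 0.56, limma adjusted p = 0.633). Eed (chr7:89954654-89980983, minus strand), which binds the methyl mark, had the highest mean of the 10 genes in both groups. It held 3.88 and 3.42 in KO and 4.09 and 4.63 in rescue cultures of clone 411-27, and 5.18 and 4.95 in KO and 4.14 and 4.91 in rescue cultures of clone 632-2. Its groups overlapped, with KO below rescue in clone 411-27 and above it in clone 632-2, and the change was -0.04 (SE 0.12, 95% confidence interval -0.30 to 0.23, limma adjusted p = 0.953).

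Of 10 further genes around PRC2, 8 could be tested and 0 passed with limma over both clones, with 1 higher and 1 lower at an unadjusted p under 0.05, beside 5.06% and 3.72% of all tested genes, and a median change of -0.01. Rbbp7, a histone-binding subunit, held 1.71 to 3.01 RPKM in KO and 2.43 to 3.43 in rescue, a difference of -0.27 (SE 0.11, limma adjusted p = 0.503). Its paralog Rbbp4 held 1.30 to 1.51 in KO and 1.26 to 1.73 in rescue, a difference of -0.09 (SE 0.10, limma adjusted p = 0.853).

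**Figure D4:**
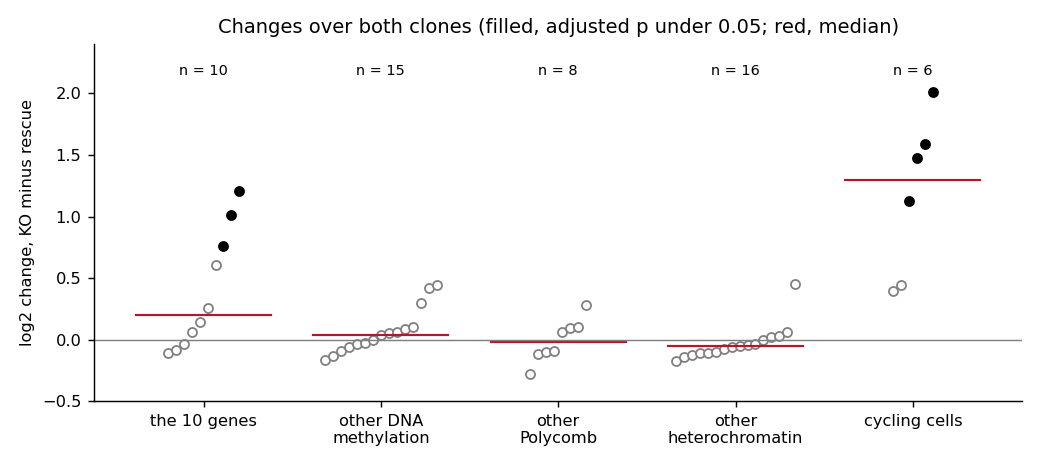
Change in log2(RPKM + 0.5), KO minus rescue over both clones, of the 10 genes, 15 other DNA methylation genes, 8 PRC2-related genes, 16 other heterochromatin genes and 6 genes of cycling cells; each point is a gene, filled where the limma adjusted p is under 0.05, and red lines are medians. Filled points are 3 of the 10 genes, 4 of the 6 cycling-cell genes and 0 in the other lists.

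The order of the 10 genes by level differed between the groups. In rescue cultures the mean ran from Eed at 4.44 rescaled RPKM through Cbx5 (2.98), Dnmt1 (1.62), Ezh1 (1.46), Suz12 (1.40), Dnmt3a (0.926), Ezh2 (0.675), Hells (0.496) and Suv39h1 (0.325) down to Uhrf1 at 0.169. Neighbours in this order overlapped between cultures except Eed with Cbx5, Cbx5 with Dnmt1, and Suv39h1 with Uhrf1. In KO cultures Eed (4.36), Cbx5 (3.11), Dnmt1 (2.74) and Suz12 (1.74) led, with Dnmt1 above Suz12 without overlap, while Eed overlapped Cbx5, and Cbx5 overlapped Dnmt1. Hells (1.49) and Suv39h1 (1.40) stood here above Ezh1 (1.36), and the ranges of these 3 overlapped. Dnmt3a (0.820), Ezh2 (0.786) and Uhrf1 (0.657) came last, each overlapping the next.

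Counted over the 10 genes, 4 had every KO culture above every rescue culture (Dnmt1, Uhrf1, Hells and Suv39h1), beside 3.11% of all tested genes, and 0 had the reverse, beside 1.4%. The same 4 were higher in all 4 pairs of same-numbered cultures, beside 8.96% of tested genes. The median change of the 10 genes was 0.20, beside -0.03 for all genes.

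Fitted alone, clone 632-2 gave 3 of the 10 genes higher and 0 lower with limma, beside 1.24% of 15301 tested genes higher and 0.0654% lower. Hells rose by 1.27 (SE 0.12, limma adjusted p = 0.0164), Suv39h1 by 1.23 (SE 0.14, limma adjusted p = 0.0242) and Uhrf1 by 0.99 (SE 0.11, limma adjusted p = 0.0242). With cultures of the same number paired as a replicate block, Hells kept its call (limma adjusted p = 0.0348), while Suv39h1 and Uhrf1 had 0.0536 and 0.0557. Leaving out any of the 4 cultures left an arm of 1 culture, assumed to vary like the other arm, and called 0 of the 10 genes. These limma fits called 0 of all genes in 3 cases and 69 higher and 3 lower without rescue culture 2, and the changes of Hells, Suv39h1 and Uhrf1 stayed between 0.94 and 1.36. Dnmt1 was 0.83 higher (SE 0.13, limma adjusted p = 0.0774) and Suz12 0.46 higher (SE 0.17, limma adjusted p = 0.389).

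Fitted alone, clone 411-27 gave 0 of the 10 genes called, and with limma 0 of all 18751 tested genes, 0% in either direction, while 426 were higher and 342 lower at an unadjusted p under 0.05. Suv39h1 was 1.19 higher (SE 0.19, limma adjusted p = 0.325), Hells 0.75 higher (SE 0.21, limma adjusted p = 0.883) and Uhrf1 0.54 higher (SE 0.22, limma adjusted p = 0.988). Every value of these 3 genes in KO lay above both rescue cultures. The test of the difference between the clones called 0 of the 10 genes and 0 of 16866 genes in limma. At an unadjusted p under 0.05, 2 of the 10 genes (Ezh2 and Hells) had the larger change in clone 632-2 and 0 the smaller, beside 2.57% and 1.49% of all tested genes. For Hells the clones differed by 0.52 (SE 0.22, unadjusted p = 0.0490 in limma). For Suv39h1 the clones differed by 0.04 (SE 0.21, 95% confidence interval -0.46 to 0.54).

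**Figure D5:**
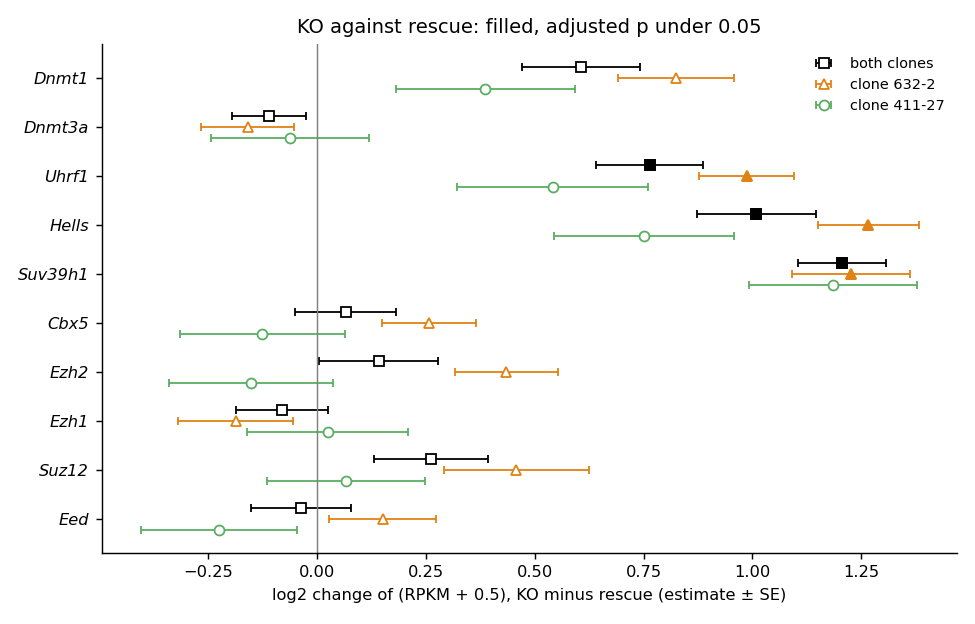
Change in log2(RPKM + 0.5), KO minus rescue, of the 10 genes over both clones (squares), in clone 632-2 (triangles) and in clone 411-27 (circles), with bars of ± 1 SE; filled symbols have a limma adjusted p under 0.05. Filled are Uhrf1, Hells and Suv39h1 over both clones and in clone 632-2, and in clone 411-27 the same 3 genes lie right of 0 with open symbols.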

How the data were processed

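RNA of 10 NIH3T3 libraries was depleted of rRNA, prepared with the Ovation Human FFPE kit and sequenced as paired reads. The authors trimmed adapters with cutadapt, aligned reads to mm10 with segemehl, and deposited RPKM per gene, counted with rnacounter against GENCODE M5; their processing notes also list Picard 1.89. The strand used in counting is not given in the sources used here. Counts were not analysed here, so the count test of the study's methods was replaced by limma.

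Each library was divided by its median-of-ratios factor over 8523 genes that averaged 1 RPKM or more, and technical replicates were averaged. Genes averaging 0.1 RPKM or more were tested with limma 3.58.1 (R 4.3.3; lmFit, eBayes with trend) on log2(RPKM + 0.5) with clone as covariate and Benjamini-Hochberg adjustment. The scripts were tested on simulated data. The contrasts used exact permutation over cultures. Same-numbered KO and rescue cultures deviated together (correlation over 7550 genes 0.48 in clone 411-27 and 0.36 in clone 632-2), so the numbers were taken to pair the cultures, and a replicate block was an alternative, beside other pseudocounts, minimum levels, scalings, treatments of technical replicates and leaving out each culture.

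All 10 genes and Lin37 are named whatever their result. From the lists of other genes, those called are named, with Dnmt3b, Uhrf2, Suv39h2, Cbx1, Cbx3, Rbbp4 and Rbbp7, each one of a pair of related genes. The 10 genes and the lists were chosen with earlier results of these data known. Symbols came from GENCODE M21 (44585 of 45232 entries matched) and promoter windows from RefSeq. Stretches shared with other genes were counted over M21 transcripts.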

Additional observations from a re-analysis of the deposited data

Results flagged for a closer look

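The Hells level of KO culture 1 of clone 411-27, 1.19 rescaled RPKM, lay far below the other 3 KO cultures (1.56 to 1.63): its gap to the nearest was 0.831 of the group's range, above the critical value of a Dixon test for 4 samples. It was the only such value among 24 groups of 4 cultures screened. Chance flags about 1 in 20 groups of this kind, so 1 among 24 is close to that rate.

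The change of Ezh2 between KO and rescue was 0.59 higher in clone 632-2 than in clone 411-27 on the log2 scale, and both KO cultures lay above both rescue cultures in clone 632-2 and below them in clone 411-27. Eed had the same pattern, with a difference of 0.38. Neither difference passed the test of the clones' difference in limma, where the adjusted p was 0.997 for both, and their causes were not tested.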

How the results depend on the processing

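Over both clones, Hells and Suv39h1 kept their direction and their call in each alternative that tested them. Against 271 genes higher and 14 lower, there were 171 and 6 without a minimum level, 93 higher with a minimum of 1 RPKM, 875 higher from RPKM as deposited, and 174 to 265 higher and 4 to 16 lower when a culture was left out. Lower genes numbered 27 with a replicate block, 6 with sample 3 of the technical pair alone and 6 without the clone covariate. The minimum of 1 RPKM removed 5 of the 10 genes from the test and left 0 called. Uhrf1 lost its call without a minimum level (limma adjusted p = 0.1004) and without the clone covariate (0.0993). Dnmt1 passed with technical replicates as separate libraries (limma adjusted p = 0.0158) and from RPKM as deposited (0.00785).

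RPKM as deposited moved the median of all genes from -0.03 to 0.64 over both clones. There Dnmt3a, Ezh1 and Eed turned positive, at 0.57, 0.64 and 0.91, as did Dnmt3a (0.59) and Ezh1 (0.54) in clone 632-2 and Dnmt3a (0.55), Ezh2 (0.44), Eed (0.69) and Cbx5 (0.74) in clone 411-27, and the clone difference of Dnmt3a (0.0405). When a culture was left out, Eed ranged from -0.12 to 0.032 over both clones. In clone 411-27 Ezh1 then ranged from -0.069 to 0.12, Suz12 from -0.028 to 0.16 and Cbx5 from -0.27 to 0.022. The clone difference of Suv39h1 ranged from -0.089 to 0.17 and was -0.20 after quantile normalization and -0.024 with technical replicates separate. The causes were not tested.

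In clone 632-2, the fit described above gave 189 genes higher and 10 lower, with 3 of the 10 genes called. Without a minimum level there were 0, 0 and 0, and with a minimum of 1 RPKM 67 higher and 0 of the 10 genes. RPKM as deposited gave 10040 of 16361 tested genes higher, 47 lower and 8 of the 10 genes. Sample 2 of the technical pair alone gave 69, 4 and 0. Lower genes numbered 4 with sample 3 alone, and 1 of the 10 genes was called with the replicate block. Leaving out a culture gave 0 to 69 higher, 0 to 3 lower and 0 of the 10 genes. In clone 411-27, 1 gene was lower with a minimum of 1 RPKM and 1 with the replicate block, and 7 genes differed upward between the clones from RPKM as deposited. The replicate block changed no call of the 10 genes other than those of Suv39h1 and Uhrf1 in clone 632-2. In the pairs the exact test of Dnmt1 against Dnmt3a cannot go below 0.125, the value it gave, and that of Ezh2 against Ezh1 gave 0.5. The Ezh2 and Ezh1 difference was 0.14 (exact p = 0.629) from RPKM as deposited. The difference of Dnmt1 against Dnmt3a stayed between 0.59 and 0.93 and that of Ezh2 against Ezh1 between 0.07 and 0.37 across the alternatives, one of which, no pseudocount, was chosen after seeing the data. Low levels, with Uhrf1 at 3.03 estimated reads per kilobase in a rescue library, limit the precision.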

Other observations

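Among 7550 genes averaging 1 RPKM or more, those whose log2 levels followed the contrasted genes most closely over the 8 cultures were sought, by Pearson's r. For Dnmt1 these were Psat1, a serine synthesis enzyme (0.974), Gm10259 (0.973) and the histone gene Hist1h3c (0.962). For Dnmt3a they were the mitochondrial transfer RNA gene mt-Te (0.931), Ppdpf (0.924) and Maml2, a Notch coactivator (0.920). For Ezh2 they were Ubald2 (0.973), Gm14584 (0.954) and Tmx3 (0.909), and for Ezh1 Tmem234 (0.947), Rsu1 (0.924) and Anxa2 (0.914). With 8 points that share the libraries and their depth, these values rank likeness only.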
